A study of Mus musculus with 16 samples.

Results

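Vgf, the granins and the enzymes that cut prohormones were followed as 10 genes in the hypothalamus of obese mice: Vgf, Chga, Chgb, Scg2, Scg3, Scg5, Pcsk1, Pcsk2, Pcsk1n and Cpe. They are 10 of the 24047 genes in the deposited count table, and all 10 were among the 14775 genes abundant enough to be tested. Vgf was put on the list because it was lower with celastrol in these same libraries. Its difference between celastrol-treated and untreated groups is therefore described without a test. The other 9 members were listed for their function.

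Peptide hormones are made as long precursors that travel through the Golgi into dense core vesicles, where they are cut and trimmed. The granins, acidic proteins that aggregate in the Golgi, help to form these vesicles, and several of them, like VGF, are themselves cut into signalling peptides. The prohormone convertases PC1/3 and PC2 cut at pairs of basic residues, carboxypeptidase E removes the basic residues that are left, and the hypothalamus uses this pathway to make the peptides that raise or restrain feeding.

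The study asked which feeding genes respond to celastrol, a plant triterpenoid that sensitizes obese mice to leptin, when pair-fed mice are included as a control. All mice were wild-type C57BL/6J made obese on a high-fat diet, and all had daily intraperitoneal DMSO for 1 week before 4 days of treatment. Veh mice had DMSO and free food, CS mice had celastrol at 100 µg per kg per day and free food, PF mice had DMSO and a ration of 0.5 g of the high-fat diet per day, and PF+CS mice had celastrol and that ration. The ration was below the 0.8 g that celastrol-treated mice ate on average, and tissue was taken 6 h after the last injection. Bulk RNA sequencing gave 16 libraries, 4 per group. Ages, cages and pooling were not given in the sources used here, so p-values measure the spread between these libraries.

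Library totals ran from 6008564 counts in PF 1 to 12880459 counts in Veh 3, which gave each member 393 to 15212 counts per library. All 8 hypothalamic marker genes, such as Nkx2-1 and Sim1, were detected, and none of them passed the test in any contrast. Their median log2 difference was still below that of all genes, which was 0.00 in each comparison with Veh. It was −0.16 in CS minus Veh, −0.14 in PF minus Veh and −0.18 in PF+CS minus Veh. The 6 thalamic markers had a median of 0.38 in PF+CS minus Veh. Of the pituitary hormones, whose cells are rich in granins, growth hormone Gh had 1 count in all and prolactin Prl was at 0 in 13 of the 16 libraries. The hormone subunit gene Cga was detected in every library, with 501 counts in all and up to 85 in a library. The 8 pituitary markers summed to 7.44 ± 6.04 CPM (counts scaled to library size) in Veh, with a highest library of 16.3 CPM. Their sums were 4.47 ± 1.16 CPM in PF, 6.39 ± 2.84 CPM in CS and 6.75 ± 3.29 CPM in PF+CS (SD, n = 4). The part of pituitary tissue in the members was not tested. The 8 neuron markers summed to 3994 ± 174 CPM in Veh and 4129 ± 60.1 CPM in PF+CS (SD, n = 4), and 0 of them passed in any contrast. Markers of other cells and regions did pass in PF+CS minus Veh, with 3 of 6 thalamic, 2 of 5 striatal and 2 of 6 endothelial markers higher, 1 of 6 oligodendrocyte markers higher and 1 lower, 1 of 6 microglial markers higher and 1 of 6 astrocyte markers lower, where 10.3% of all genes were called. Such markers also passed in other comparisons. In PF+CS minus CS 1 striatal and 1 microglial marker were higher and 1 oligodendrocyte marker lower (2.65% of all genes called). In PF minus Veh 1 striatal and 1 endothelial marker were higher, and 1 oligodendrocyte and 1 microglial marker lower (3.63%). In CS minus PF 1 thalamic, 1 endothelial and 1 oligodendrocyte marker were higher and 2 striatal lower (3.80%). In CS minus Veh 1 endothelial marker was higher (0.893%). Their part in the differences of the members was not tested. Fibroblast markers of the meninges, such as Dcn and Col1a1, were low in 5 libraries, Veh 3, PF 1, PF 2, CS 2 and PF+CS 4, with a mean of 2.31 to 2.64 log2 CPM over 8 genes against 3.68 to 4.36 in the other 11. The comparison tables deposited by the authors name the groups differently from the count columns. Of their 5 names, 3 differ from the columns that their means match, as if PF and CS had changed places. Group names below are those of the count columns and sample labels, and PF+CS minus Veh and the interaction do not depend on this.

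Measured per transcript length, in FPKM (fragments scaled to transcript length and library size, the authors' deposited values), the carboxypeptidase gene Cpe was the most abundant member. It stood at 206 ± 8.97 FPKM (SD, n = 16) and was the 23rd most abundant gene of all. Scg2, which encodes secretogranin II, followed at 116 ± 7.90 FPKM and ranked 64th. The remaining granins and binding proteins lay within a narrow band. Scg5, which encodes the PC2 chaperone 7B2, was at 47.5 ± 2.71 FPKM, Pcsk1n, which encodes the PC1/3 inhibitor proSAAS, at 39.4 ± 4.91, Scg3 at 34.3 ± 1.62, Chgb at 31.6 ± 1.69 and Chga at 31.3 ± 1.47. Chga and Chgb did not differ beyond their spread. Vgf stood at 24.3 ± 4.36 FPKM. The convertase genes were the lowest, with Pcsk2 (PC2) at 19.6 ± 0.908 FPKM and Pcsk1 (PC1/3) at 7.64 ± 0.864. Across the 16 libraries Vgf had the largest coefficient of variation of the 10 in FPKM, 17.9%, which includes the group differences Vgf was selected on. Pcsk1n followed at 12.5% and Pcsk1 at 11.3%, and in the other 7 it was 4.36 to 6.82%.

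**Figure D1:**
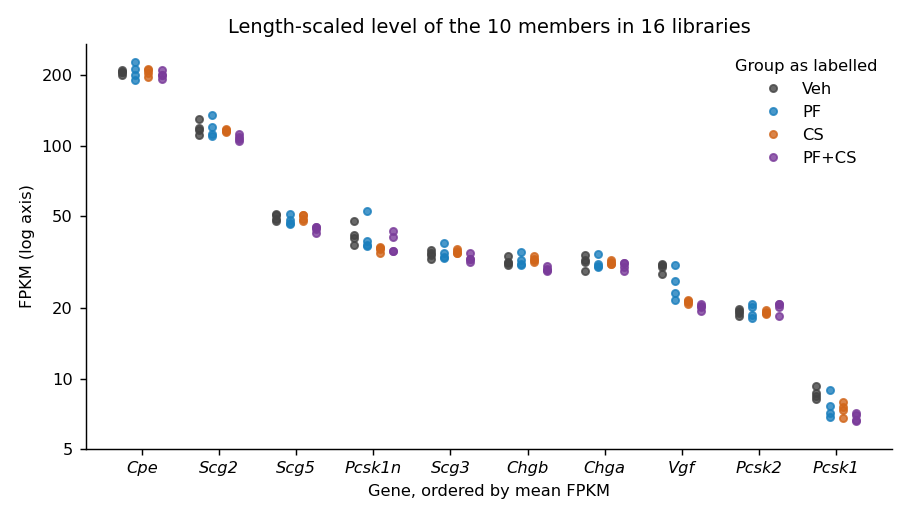
FPKM on a log axis for each of the 10 members, with 1 point per library coloured by group and genes ordered by their mean. Cpe sits near 206 FPKM and Pcsk1 near 7.64, and the 4 groups overlap for most genes while Vgf spreads from 19.5 to 31.1.

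The promoters of this gene family are known for the cyclic AMP response element, the binding site of CREB, which couples granin and convertase transcription to neuronal activity. RefSeq windows of 250 bases before to 50 bases after the start (GRCm38.p6) were at hand for 8 of the members, without Vgf and Cpe. The full element TGACGTCA, which reads the same on both strands, stood in 3 of the 8 windows, those of Chgb, Scg2 and Pcsk1. It stood in 1.79% of all 32851 windows. Of the 16738 genes in the count table with a window, 2.62% held it in at least 1. The half-site TGACG, searched on both strands and contained in every full element, stood in 7 of 8 windows, all but that of Pcsk1n. It stood in 20.8% of all windows, and 26.8% of the genes in the count table with a window held it in at least 1. In the stretches below the marked bases begin 44 to 78 bases before the start. The stretches are shown because their 4 genes are set beside each other below. Capitals mark the element or, in Chga, its half-site. A further half-site near the end of the Pcsk1 stretch is left in lower case.
Chgb, chr2:132781544-132781603, plus strand: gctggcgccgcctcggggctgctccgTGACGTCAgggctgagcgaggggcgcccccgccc
Scg2, chr1:79440061-79440120, minus strand: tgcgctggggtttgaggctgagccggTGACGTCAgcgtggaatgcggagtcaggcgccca
Pcsk1, chr13:75089753-75089812, plus strand: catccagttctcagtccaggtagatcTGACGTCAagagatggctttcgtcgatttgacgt
Chga, chr12:102554871-102554927, plus strand: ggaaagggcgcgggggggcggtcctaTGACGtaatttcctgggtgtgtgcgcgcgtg
A match describes the letters only. In the libraries Pcsk1 was lower in PF+CS than in Veh. Chgb and Scg2 had their lowest group means in PF+CS without passing edgeR's test on all libraries. So did Chga, Scg3 and Scg5, whose windows hold the half-site only, with Scg5 at 154 CPM in PF+CS against 166 CPM in Veh. Chga, at 163 CPM in both groups, stayed within 153.5 and 173.6 CPM. Whether the element has a part in these levels was not tested.

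Vgf (5:137026392-137033351, plus strand, GRCm38, protein-coding) encodes a secreted precursor whose peptides act on energy balance and which is induced by neurotrophins and neuronal activity. The Veh libraries 1 to 4 held 206, 210.3, 199.8 and 218 CPM. The PF libraries held 207, 191, 169 and 157 CPM, the CS libraries 151.5, 157, 151 and 155 CPM, and the PF+CS libraries 147, 150.0, 143 and 150.4 CPM. Every library labelled CS or PF+CS was below every library labelled Veh or PF, and the PF libraries reached from the Veh range down to the edge of the CS range.

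**Figure D2:**
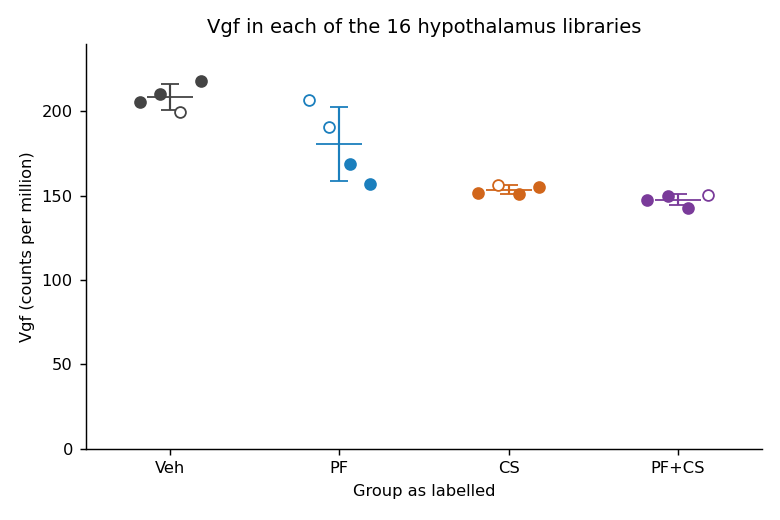
Vgf in CPM for each of 16 libraries, grouped by label, with bars at the mean ± SD of 4 libraries and open circles for the 5 libraries low in meningeal markers. The CS and PF+CS libraries lie between 143 and 157 CPM, the Veh libraries between 199.8 and 218 CPM, and the 2 open circles in PF are its highest values.

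The Veh mean was 208 ± 7.79 CPM and the PF mean 181 ± 22.2 CPM, and celastrol-treated mice averaged 154 ± 2.78 CPM on free food and 148 ± 3.39 CPM on the ration (SD, n = 4). As a description of the pattern that Vgf was selected on, the difference on the log2 scale was −0.44 (a change of −26.3%) in CS minus Veh and −0.50 (a change of −29.2%) in PF+CS minus Veh. It was −0.29 in PF+CS minus PF and −0.23 in CS minus PF. These 4 values share libraries with each other and are not separate evidence. Under the names of the authors' comparison tables, the −0.44 would belong to the ration alone and the −0.21 given next to celastrol alone.

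For the ration without celastrol the log2 difference of Vgf in PF minus Veh was −0.21. It is also given as a description, since the choice of Vgf rested on high values in the untreated libraries, Veh among them. The PF and Veh libraries overlapped, and with 1 library left out the difference ran from −0.28 to −0.15. In PF minus Veh 1 of the 10 members was counted as called by edgeR, Vgf itself, where 3.63% of all genes were called, and the other 9 were not. In the authors' deposited table from the PF and Veh columns the Vgf difference was −0.18.

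The high PF values came from PF 1 and PF 2, which are also 2 of the 5 libraries low in meningeal markers, and PF 1 is the shallowest library. In the celastrol groups the low-meningeal library was also the highest for Vgf, by a small margin. CS 2 held 157 CPM against 151 to 155 CPM in the other CS libraries, and PF+CS 4 held 150.4 CPM against 143 to 150.0 CPM, whereas Veh 3, at 199.8 CPM, was the lowest of its group. Without the 5 libraries, the Vgf difference was −0.38 in PF minus Veh, and it shrank from −0.29 to −0.15 in PF+CS minus PF and from −0.23 to −0.09 in CS minus PF. The part that tissue makeup has in these differences was not tested.

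**Figure D3:**
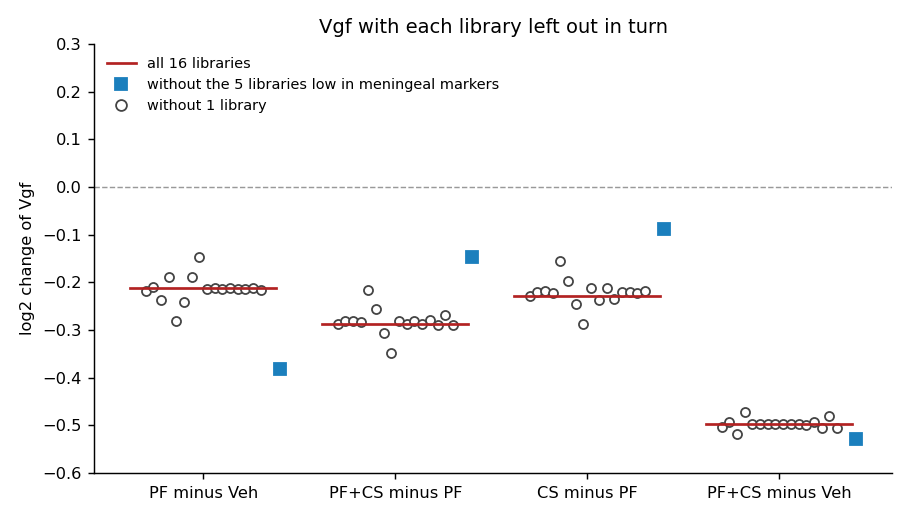
Log2 change of Vgf in 4 comparisons with all 16 libraries (red line), with each library left out in turn (circles) and without the 5 libraries low in meningeal markers (squares). PF+CS minus Veh stayed between −0.52 and −0.47 with 1 library left out, whereas the comparisons that use PF moved toward 0 or away from it once those 5 libraries were left out.

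With the ration added to celastrol, the Vgf difference in PF+CS minus CS was −0.06, and the highest PF+CS library was just below the lowest CS library. Low values in the celastrol libraries entered the choice of Vgf, so this value too is a description with no test. The interaction, the celastrol difference on the ration less the one on free food, was 0.15. It is built from the differences Vgf was selected on and is given without a test.

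The Vgf transcript has an unusual composition, with 64.1% G and C bases, higher than 99.4% of the tested genes. With GC content and transcript length taken into the fit, the description of CS minus Veh was −0.37 and that of PF minus Veh was −0.13. The 45S ribosomal RNA gene Rn45s took 4.29 ± 0.928% of Veh counts, 3.17 ± 0.537% of PF counts, 2.73 ± 0.206% of CS counts and 3.21 ± 0.558% of PF+CS counts (SD, n = 4). Its share was highest in Veh, where Vgf was highest, but lowest in CS, whereas Vgf was lowest in PF+CS. Its part in the result was not tested. Bulk tissue cannot tell fewer cells that make a transcript from less transcript per cell.

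Pcsk1 (13:75089826-75134861, plus strand, GRCm38, protein-coding) encodes PC1/3, the convertase that starts the cutting of many precursors, pro-opiomelanocortin and VGF among them. It was held at 64.0, 68.3, 67.1 and 76.0 CPM in the Veh libraries and at 57.7, 56.0, 58.2 and 55.0 CPM in the PF+CS libraries. The groups did not overlap. The PF libraries, at 67.7, 60.5, 57.9 and 63.4 CPM, and the CS libraries, at 58.6, 66.2, 57.8 and 62.7 CPM, lay between and overlapped both.

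Pcsk1 fell by 0.28 on the log2 scale in PF+CS minus Veh (SE 0.06, a change of −17.5%, adjusted p = 0.00270 by edgeR's quasi-likelihood test). It remained called in all 27 other settings, with log2 changes from −0.34 to −0.23, and the authors' deposited table for the same columns gives −0.25 (adjusted p = 0.00360). Neither treatment alone passed the test, at −0.17 in CS minus Veh (adjusted p = 0.146) and −0.15 in PF minus Veh (adjusted p = 0.163, edgeR). The interaction was 0.04 (95% interval −0.13 to 0.21). Over all 16 libraries Pcsk1 had a Pearson r of 0.788 with Vgf on log2 CPM, which includes the group differences Vgf was selected on. Once the group means were removed r was 0.431, below that of Scg2 (0.654), Pcsk1n (0.515), Cpe (0.512) and Chgb (0.457) with Vgf. Such values describe libraries that share groups and depth.

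Pcsk2 (2:143546156-143816285, plus strand, GRCm38, protein-coding) encodes PC2, which makes the later cuts that give the smaller peptides. It went the other way. The Veh libraries held 256, 240.6, 261 and 249 CPM and the PF+CS libraries 279, 285, 281 and 259 CPM, and only PF+CS 4 lay within the Veh range. Pcsk2 rose by 0.13 in PF+CS minus Veh (SE 0.04, a change of 9.70%, adjusted p = 0.0281, edgeR). The call was lost with GC content and length in the fit (0.11, adjusted p = 0.0798), on FPKM values (0.06, adjusted p = 0.387, limma), and without Veh 2, PF+CS 1, PF+CS 2 or PF+CS 3. On FPKM values the median of all genes was −0.06 in this comparison, against 0.00 by edgeR, and the 0.06 of Pcsk2 includes that shift. Pcsk2 overlaps the opposite-strand genes Pcsk2os1 and Pcsk2os2, and whether the counting used strand is not given in the sources used here.

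In PF+CS minus Veh, 3 of the 10 members were thus called, Vgf and Pcsk1 lower and Pcsk2 higher, where 10.3% of all genes were called, 4.47% lower and 5.85% higher. Vgf counts there by its selection. The ratio of Pcsk2 to Pcsk1 in FPKM was 2.36, 2.20, 2.38 and 1.98 in the Veh libraries and 2.99, 3.13, 2.87 and 2.84 in the PF+CS libraries. The groups did not overlap. PF at 2.57 ± 0.161 and CS at 2.61 ± 0.197 (SD, n = 4) lay between. In FPKM Pcsk1 went from 8.66 in Veh to 6.83 in PF+CS and Pcsk2 from 19.3 to 20.2, so most of the difference in the ratio lay in Pcsk1. The ratio was chosen after the values were seen and carries no test.

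**Figure D4:**
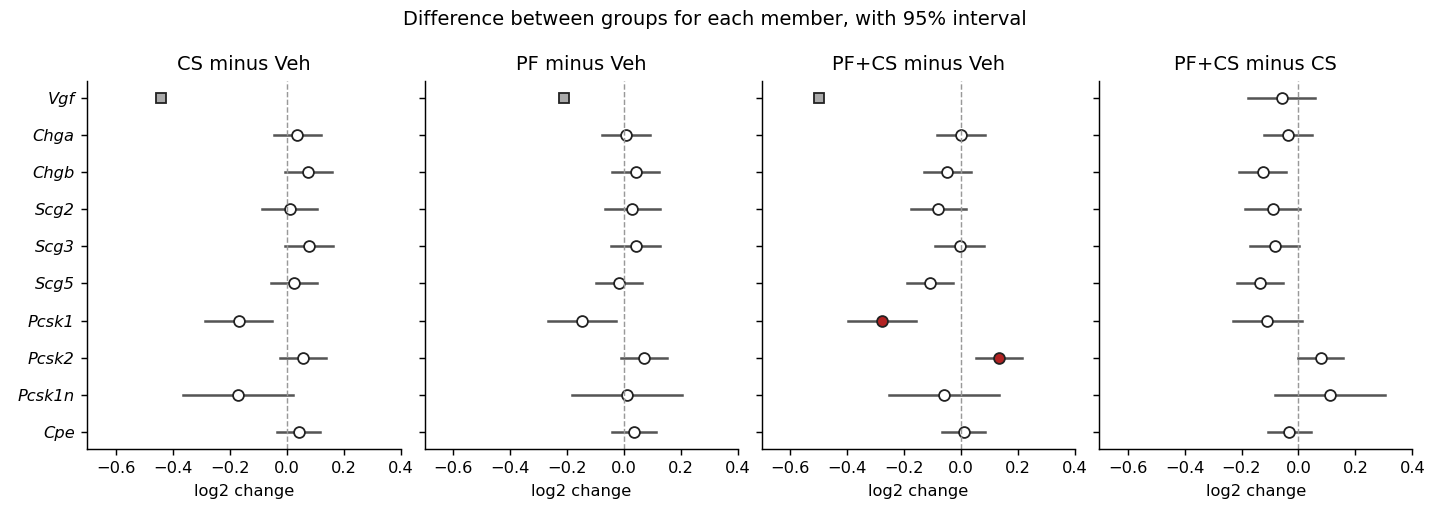
Log2 difference of each member in 4 comparisons, with 95% intervals from edgeR. Red circles mark an adjusted p of at most 0.05, open circles the others, and grey squares with no interval mark Vgf in the comparisons with Veh. In PF+CS minus CS Vgf is drawn with an interval, although celastrol libraries entered its choice, and that interval is not read as a test. Pcsk1 at −0.28 and Pcsk2 at 0.13 stand on opposite sides of 0 in PF+CS minus Veh, and 8 of the 10 members lie below 0 in PF+CS minus CS.

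The genes for the partners of the convertases were not called by edgeR on all libraries in any comparison, though Scg5 was under some other settings. Scg5 (2:113776362-113829121, minus strand, GRCm38, protein-coding), whose product 7B2 is needed to bring PC2 to its active form, held 158, 165, 175 and 166 CPM in Veh, 165.0, 176, 173 and 164 CPM in CS, and 149.7, 159, 151 and 158 CPM in PF+CS. The PF libraries were at 159 to 168 CPM. The CS and PF+CS libraries did not overlap, and PF+CS minus CS was −0.14 (95% interval −0.22 to −0.05, adjusted p = 0.0589, edgeR). PF+CS minus Veh was −0.11 for Scg5 (adjusted p = 0.0768, edgeR), and on FPKM values it was −0.16 and passed (adjusted p = 0.0188, limma). The FPKM fit put the median of all genes at −0.06 in this comparison, against 0.00 by edgeR, and the −0.16 includes that shift. Pcsk1n (X:7919822-7924410, plus strand, GRCm38, protein-coding) ran from 213 CPM in CS 2 to 303 CPM in PF 1. All CS libraries, at 213 to 224 CPM, were below all Veh libraries, at 227 to 274 CPM, yet CS minus Veh was −0.17 (SE 0.09, adjusted p = 0.419, edgeR). For these columns the authors' deposited table has −0.15 with an adjusted p of 0.0321. Pcsk1n overlaps Eras on the opposite strand.

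Among the granins, Chgb, Scg2 and Scg3 rose and fell together from library to library. Chgb (2:132781278-132795079, plus strand) correlated with Scg3 (9:75643189-75684056, minus strand) at r = 0.844 and with Scg2 (1:79434669-79440120, minus strand) at r = 0.776 over 16 libraries, and at 0.813 and 0.755 with group means removed. Chga (12:102554969-102565028, plus strand) went with none of them beyond r = 0.350. With Vgf, Scg2 had r = 0.453, Chgb 0.148, Scg3 −0.05 and Chga 0.01, and with group means removed the same 4 had 0.654, 0.457, 0.343 and 0.356. These values come from libraries that share depth and tissue makeup, and no test of the differences between them was made.

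Chgb and Scg2 had their lowest group means in PF+CS. Chgb, chromogranin B, held 258, 254, 244 and 249 CPM in the CS libraries and 221, 228, 232 and 240.3 CPM in the PF+CS libraries. Scg2 held 818, 812, 816 and 822 CPM in CS and 771, 779, 746 and 773 CPM in PF+CS. Neither gene overlapped between these groups, and with Scg5 and Vgf 4 of the 10 members did not, as was the case for 10.1% of all tested genes. In the Veh libraries both genes spread more widely, Chgb over 223 to 257 CPM and Scg2 over 741 to 903 CPM, and in PF they held 239 to 254 and 782 to 887 CPM.

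In PF+CS minus CS, 0 of 10 members were called by edgeR on all libraries, where 2.65% of all genes were. At an unadjusted p under 0.05 there were 2 of 10 members, Chgb and Scg5, and 2367 of the 14775 tested genes. The count of members is near that share of all genes. Chgb was −0.13 (adjusted p = 0.0873) and Scg2 was −0.09 (adjusted p = 0.349). With these 2 groups fitted alone, whose libraries were close together, 3 members passed, Chgb (adjusted p = 0.0254), Scg2 (0.0278) and Scg5 (0.0257), where 4.13% of all genes did. The same 3 passed in the authors' deposited table from these columns, at adjusted p of 0.0239, 0.00552 and 0.0423, where 3.22% of genes did. By DESeq2 on all libraries Scg5 alone passed (adjusted p = 0.0450). Apart from the fits that left out a single library, all settings put Scg2 at −0.10 to −0.08 and Chgb at −0.14 to −0.13. These settings include the fit without the 5 libraries low in meningeal markers. The SE of Scg2 was 0.05 with all libraries and 0.02 with the 2 groups alone.

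Scg3, Chga and Cpe gave no call in any comparison or setting. Scg3, whose product brings chromogranin A to the vesicle membrane, held 206 to 237 CPM in Veh, 220.1 to 237 in PF, 229.9 to 240.3 in CS and 211 to 233 in PF+CS, and overlaps the gene model Gm37871 on the opposite strand. Chga held 153.5 to 172 CPM in Veh and 156 to 171 CPM in PF+CS, with a difference of 0.00 (95% interval −0.08 to 0.08). Cpe (8:64592542-64693054, minus strand) held 1109 to 1195 CPM in Veh and 1119 to 1239 CPM in PF+CS, with a difference of 0.01 (−0.07 to 0.09). These intervals limit a change of Chga or Cpe in PF+CS to under 0.10 on the log2 scale either way.

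**Figure D5:**
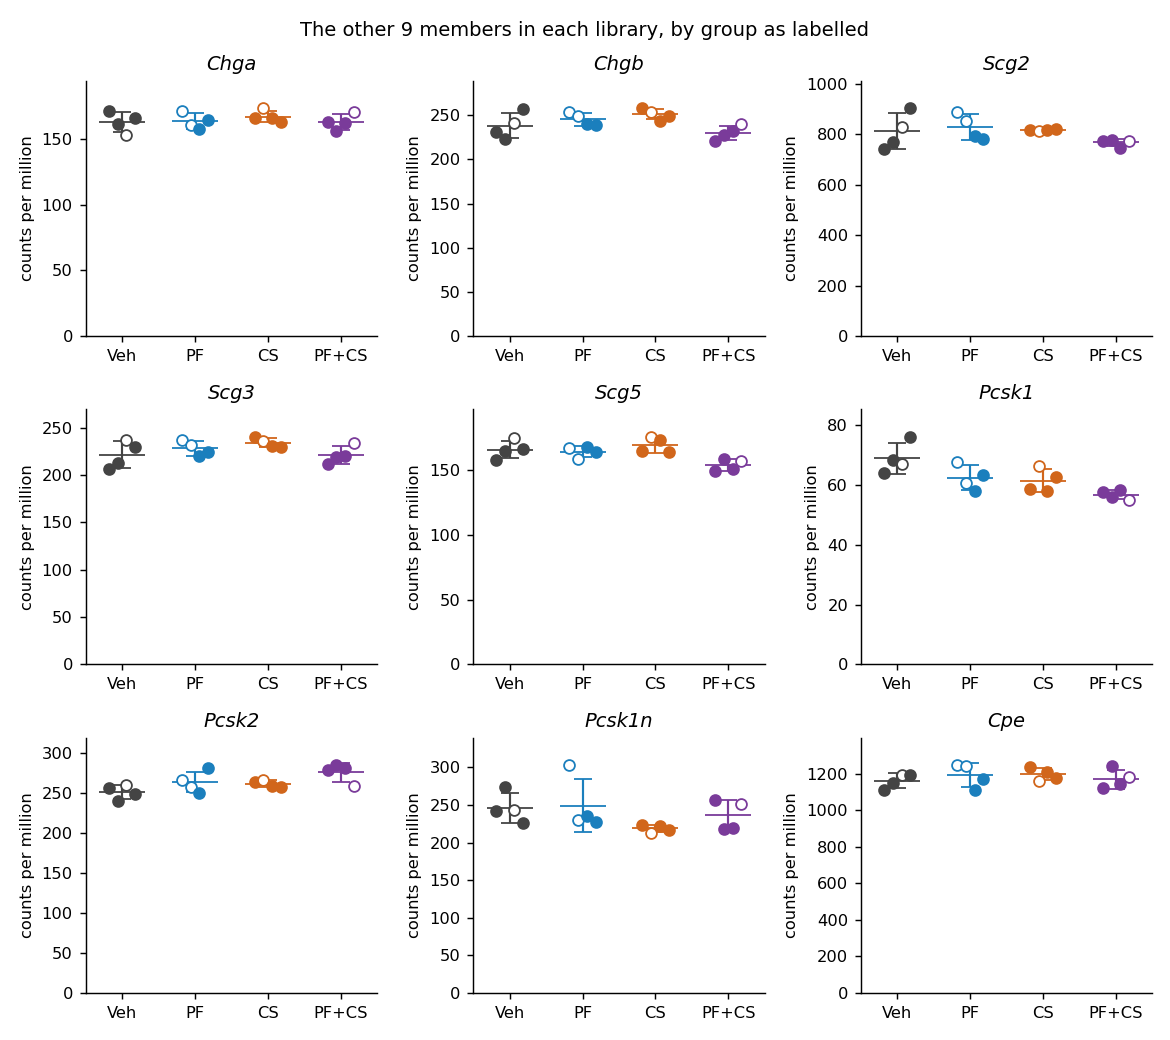
CPM of the 9 members other than Vgf in each library, grouped by label, with bars at the mean ± SD of 4 libraries and open circles for the 5 libraries low in meningeal markers. Pcsk1 falls from 68.8 CPM in Veh to 56.7 CPM in PF+CS, Chgb, Scg2 and Scg5 are lower in PF+CS than in CS, and 1 PF library stands high for Pcsk1n.

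In the remaining comparisons Vgf was the single member counted as called or none was. In CS minus Veh and in CS minus PF, 1 of 10 was called, where 0.893% and 3.80% of all genes were. In PF+CS minus PF 1 of 10 was called, where 0.0948% of all genes were, 14 in number. All 3 counts are Vgf itself and follow from its selection. In PF+CS minus PF the median member was −0.08 against −0.01 for all genes, with 9 of 10 members below 0. In PF+CS minus CS the median was −0.07 against 0.00, with 8 of 10 below 0. Vgf, which was selected on these libraries, is among the members below 0 in both. The 2 comparisons share the PF+CS libraries. In PF+CS minus PF 5 members had an unadjusted p under 0.05 by edgeR, against 7.85% of all genes. They were Vgf, by its selection, and Scg2, Chgb, Scg5 and Pcsk1. For the interaction 0 of 10 members and 0.0% of all genes were called by edgeR or by DESeq2. At an unadjusted p under 0.05 there were 3 members, Chgb (−0.17), Scg3 (−0.12) and Scg5 (−0.12), and 741 genes, 5.02% of all.

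The rest of the processing pathway was followed in a list of 15 other enzymes that trim or cut peptides, 14 of them tested. In PF+CS minus Veh 1 fell and 1 rose, where 10.3% of all genes were called, and in PF minus Veh 1 fell, where 3.63% were. Both counts are near those shares. Pam, the enzyme that amidates peptide ends, stood at 541 ± 7.62 CPM in Veh and 495 ± 13.8 CPM in PF, and in the celastrol groups at 512 ± 9.29 CPM on free food and 492 ± 11.3 CPM on the ration (SD, n = 4). It fell by 0.13 in PF minus Veh (adjusted p = 0.0219) and by 0.14 in PF+CS minus Veh (adjusted p = 0.00627, edgeR), with no overlap of groups in either. Cpm, a membrane carboxypeptidase that is not specific to neurons, rose by 0.51 in PF+CS minus Veh (adjusted p = 0.00383, edgeR).

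Of 17 tested genes of the dense core vesicle machinery, 2 fell and 1 rose in PF+CS minus Veh and 1 fell in CS minus Veh, where 10.3% and 0.893% of all genes were called. In PF+CS minus Veh Rab3a, a vesicle GTPase, fell by 0.13 (adjusted p = 0.0159), and Cadps2, which primes dense core vesicles for release, fell by 0.23 (adjusted p = 0.0462, edgeR). The calcium sensor Syt7 rose by 0.18 (adjusted p = 0.0373). Cyb561, which supplies electrons for amidation inside the vesicle, stood at 52.3 ± 5.07 CPM in Veh and 42.4 ± 2.01 in CS (SD, n = 4) and fell by 0.29 in CS minus Veh (adjusted p = 0.0301, edgeR).

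Among 27 tested neuropeptide precursors, the cargo of this pathway, 4 fell and 0 rose in CS minus Veh, 1 fell in PF minus Veh, and 5 fell and 2 rose in PF+CS minus Veh. The shares of all genes called were 0.893%, 3.63% and 10.3% in this order, and the count in PF minus Veh is near its share. In CS minus PF 2 fell, where 3.80% of all genes were called. Pomc, the precursor of α-MSH, stood at 31.4 ± 6.32 CPM in Veh against 18.7 ± 3.31 CPM in PF, 18.8 ± 2.32 CPM in CS and 17.5 ± 1.81 CPM with both (SD, n = 4) and fell in all 3 (adjusted p = 0.0106 in CS, 0.00451 in PF and 0.000634 in PF+CS, edgeR). Pdyn, the dynorphin precursor, was lower in CS both against Veh (−0.38, adjusted p = 0.00379) and against PF (−0.31, adjusted p = 0.00863). Agrp, the precursor of the melanocortin antagonist, rose by 0.67 in PF+CS minus Veh (adjusted p = 0.0328). The median precursor was −0.12 in CS minus Veh and −0.17 in PF+CS minus Veh, against 0.00 for all genes in both. The 8 hypothalamic markers had medians of −0.16 and −0.18 in the same comparisons. The part of tissue makeup in the precursor medians was not tested.

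Of 21 tested genes that respond to CREB or neuronal activity, 1 fell and 1 rose in PF+CS minus Veh, near the 10.3% of all genes called there, and by edgeR 0 passed in any other comparison. Arc, an immediate early gene of synapses, fell by 0.59 (adjusted p = 0.00832) and the clock gene Per1 rose by 0.19 (adjusted p = 0.0450, edgeR). Of 3 proteins reported to bind peptides of VGF, C3ar1, C1qbp and Hspa8, only the chaperone Hspa8 passed, in CS minus PF (−0.23, adjusted p = 0.0442, edgeR), where 3.80% of all genes were called.

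The 5 genes whose levels went most closely with Vgf over the 16 libraries were Tpi1 (Pearson r = 0.938 on log2 CPM), Atp6v1b2 (0.912), Stmn3 (0.912), Alg2 (0.909) and Ints4 (0.907). With group means removed r was 0.832, 0.693, 0.615, 0.700 and 0.521. Tpi1, a glycolytic enzyme, averaged 276 ± 4.25 CPM with vehicle, 259 ± 19.4 CPM with the ration, 245 ± 5.33 CPM with celastrol and 241 ± 7.08 CPM with both (SD, n = 4). Atp6v1b2, a subunit of the proton pump that acidifies vesicles, stood at 494 ± 12.4, 460.0 ± 28.5, 443 ± 5.68 and 435 ± 7.21 CPM in the same order. Both had the wide spread in PF that Vgf had. The log2 differences of all 5 genes in PF+CS minus Veh were −0.19 to −0.16. They were picked for their likeness to Vgf, so these values describe them and carry no test.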

How the data were processed

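The authors deposited a table of whole-number counts per gene for 16 libraries, FPKM values of these libraries, and 5 comparison tables. In the latter the authors give baseMean (the mean normalised count), log2 fold changes and their errors on the log2 scale, a test statistic (a score), and p-values before and after adjustment, all as deposited. Per the labels' protocols a SMARTer mRNA kit was used, and the genome build was GRCm38 per the submitters' processing notes. Aligner, counter and strand: not given in the sources used here. No column lacked a sample (0 columns). Of the gene names, 27 had become dates in a spreadsheet, and they held 0.220 to 0.240% of a library's counts.

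Counts of all 16 libraries were fitted with the robust quasi-likelihood test of edgeR 4.0.16 under R 4.3.3, using TMM factors and a filterByExpr minimum count of 10, and 7 contrasts were taken, 6 differences between groups and the interaction. Genes were called at a Benjamini-Hochberg adjusted p of at most 0.05 over all 14775 tested genes. The common biological coefficient of variation was 0.0549. CPM are TMM-scaled means ± SD, except for marker sums, which use plain library size. The fit was checked on simulated data. Alternatives were DESeq2 1.42.0, RLE scaling, no filter, 2 groups alone, limma 3.58.1 on log2(FPKM + 1) or log2(FPKM + 0.1), a GC and length offset, the replicate number as a block, leaving out the 5 libraries low in meningeal markers, and leaving out each library. Libraries differed beyond sampling noise (lowest chi-square per degree of freedom 1.63, for CS 1 and CS 4). Each was counted as 1 replicate, although this spread cannot show that the libraries came from separate mice. Gene positions, transcript length and GC content are from GENCODE M21 of the same build.

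The members and lists were chosen with earlier results of these data known. The rule for names took all 10 members, of each other list at most 4 called genes with the smallest p per contrast, and the 5 genes most correlated with Vgf outside the members, leaving out provisional gene models.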

Additional observations from a re-analysis of the deposited data

Results flagged for a closer look

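Pcsk1n in PF 1 stood at 303 CPM, while the other 3 PF libraries held 228 to 236 CPM, so that the gap to the nearest of them was 0.898 of the group's range. PF 1 is the shallowest library and has the lowest level of meningeal markers, and the part of either was not tested. In all, 40 groups of 4 libraries were looked at, of which chance would flag about 1 in 20.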

How the results depend on the processing

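The 70 results of the 10 members in 7 contrasts were recomputed under 27 other settings, 16 of which left out a library. Of these, 59 were called under none of the settings, and 21 of those changed sign under some setting. The other 11 were called under at least 1 setting and kept their direction in all. Pcsk1 in PF+CS minus Veh was called throughout.

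Members called in PF minus Veh fell from 1 to 0 with the 2 groups alone, under each of the 3 limma fits on FPKM, with the GC and length offset, and with the replicate block and that offset. Those in PF+CS minus PF fell from 1 to 0 under the same settings, with RLE size factors and without the 5 libraries low in meningeal markers. Those in CS minus PF fell from 1 to 0 with the 2 groups alone, under the 3 limma fits and without the 5 libraries. In these 3 comparisons the member is Vgf, which was selected on the same values. Those in PF+CS minus CS rose from 0 to 1 by DESeq2 and to 3 with the 2 groups alone. With each library left out, the range was 0 to 1 in PF minus Veh, PF+CS minus PF and CS minus PF, and 0 to 2 in PF+CS minus CS. The cause was not tested.

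Over all genes the calls in CS minus Veh, 132, became 282 by DESeq2, 257 with the 2 groups alone, 18, 19 and 7 under limma on FPKM (pseudocount 1, 0.1, and 1 with no filter), 80 with the offset, 66 with block and offset, 342 without the 5 libraries and 10 to 242 with a library left out. Those in PF minus Veh, 537, became 284 with the 2 groups alone, 118, 126 and 76 under limma and 111 to 810 with a library left out. Those in PF+CS minus Veh, 1524, became 800 under limma with no filter and 710 to 2007 with a library left out. Those in PF+CS minus PF, 14, became 29 by DESeq2, 7 with the 2 groups alone, 0 under the limma fits, 7 with the offset, 3 with block and offset, 0 without the 5 libraries and 1 to 24 with a library left out. Those in PF+CS minus CS, 392, became 598 with the 2 groups alone, 53, 78 and 20 under limma, 223 with the replicate block, 246 with block and offset, 1013 without the 5 libraries and 113 to 961 with a library left out. Those in CS minus PF, 561, became 130, 160 and 69 under limma and 190 to 841 with a library left out.

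Replicate numbers did not pair the libraries: the correlation of deviations between same-numbered libraries was −0.42 to 0.33, over 0.1 in 5 of 24 pairs, and 1 of 16 libraries correlated best with its own number. The block alone changed no call of a member. Each member had 393 counts or more in every library, so none was limited by detection.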
